A study of Homo sapiens with 12 samples.

Results

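Cancer-testis antigens are proteins made by germ cells of the testis and by many tumors, while most other adult tissues hold little or none of their RNA. Their best known families, MAGE, GAGE, PAGE, XAGE, SPANX, SSX, CT45, CTAG and CSAG, lie on the X chromosome in clusters of recent, near-identical gene copies. In somatic cells these genes are kept silent largely by DNA methylation of their promoters, and peptides of several of them are recognized by cytotoxic T cells in tumors. Members were chosen by name: every gene whose symbol begins with MAGEA, MAGEB, MAGEC, GAGE, PAGE, XAGE, SPANX, CT45, CTAG or CSAG, or with SSX and a number, was taken unless the symbol carried a dash, a dot or the P of a pseudogene. This gave 93 gene identifiers on chromosome X among 63677 in the tables. The 58 further identifiers with the same names on patch scaffolds were at 0 in every library. The letters CTAG also open the names of 8 CTAGE genes, which lie outside chromosome X and belong to another family, and these were left out of all counts.

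The RNA came from DAOY, a medulloblastoma cell line, sequenced as 1 library for each of 12 combinations of genotype and culture. The genotypes were NOTCH1KO and NOTCH2KO, in which CRISPR/Cas9 had been aimed at NOTCH1 or NOTCH2, and the unedited wild type (WT), with 4 libraries each. Each genotype was grown on plates coated with the Notch ligand Jagged1 or with Fc, the control protein, and was given DAPT, an inhibitor of γ-secretase, or DMSO over 12 h. Each genotype stood for 1 line, and nothing read here says how many clones it came from, so that the effect of a targeted gene and other differences between the lines cannot be told apart. Depth was not counted from reads but estimated from the deposited coverage and FPKM values. By that estimate it ran from 18.3 to 22.4 M reads a library. A single read on a transcript of 1 kb then equals about 0.0947 to 0.117 TPM. TPM, the unit of the values below, is a share of transcripts scaled to gene length and library size. NOTCH1 averaged 0.565 ± 0.249 TPM in NOTCH1KO and 3.19 ± 0.337 TPM in WT, and NOTCH2 averaged 50.7 ± 7.95 TPM in NOTCH2KO and 80.7 ± 9.56 TPM in WT (SD, n = 4 each). Of 7 testis germ cell markers, PRM1, PRM2, TNP1, ACR and SYCP1 were at 0 in all 12 libraries, and DAZL and DDX4 stayed under 1 TPM. Markers of blood and epithelial cells were at most 1.57 TPM. Of the DAOY markers, the SHH receptor gene PTCH1 was between 3.78 and 15.9 TPM, and ATOH1, a gene of cerebellar granule cell precursors, was between 0 and 0.252 TPM.

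Of the 93 identifiers, 61 reached 1 TPM in at least 1 library, 13 stayed between 0 and 1 TPM, and 19 were at 0 throughout. The 61 comprised 16 of 17 GAGE, 8 of 13 MAGEA, 4 of 10 MAGEB, all 3 MAGEC, 5 of 6 PAGE, 6 of 9 XAGE, 6 of 11 SPANX, 3 of 11 SSX, all 6 CT45 and all 4 CSAG identifiers. None of the 3 CTAG identifiers reached 1 TPM. The highest CTAG value was 0.753 TPM, for CTAG2 in WT cells on Fc with DMSO. Summed over all 93 identifiers, the families gave between 1635 and 1729 TPM in NOTCH1KO, between 3236 and 3455 TPM in NOTCH2KO and between 1775 and 1853 TPM in WT. The SPANX family alone gave between 1928 and 2043 TPM in NOTCH2KO, against between 295 and 320 TPM in WT, and between 78.8 and 112 TPM in NOTCH1KO, against the same WT libraries.

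**Figure D1:**
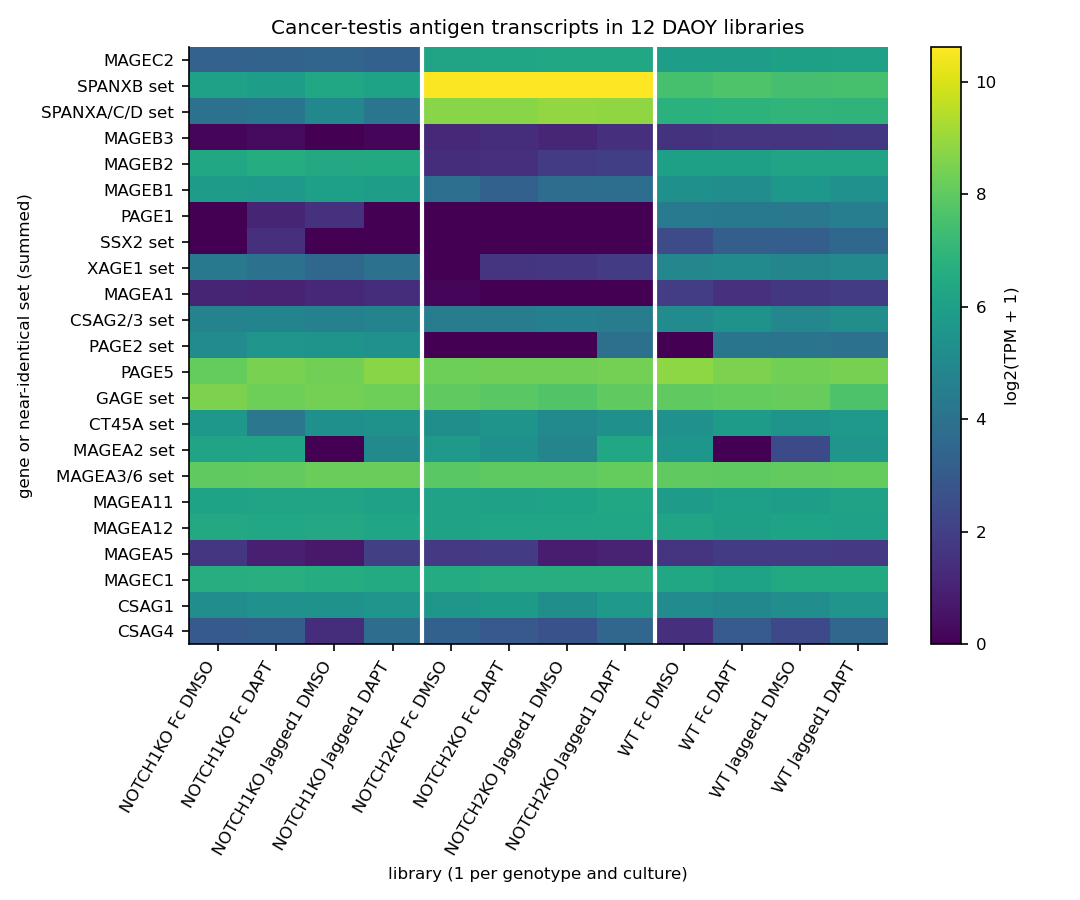
Level of each expressed gene or near-identical set (rows, copies summed) in the 12 libraries (columns), as log2(TPM + 1) in color. MAGEC2 and the SPANX rows were darkest in NOTCH1KO, MAGEB2, MAGEB1 and XAGE1 were darkest in NOTCH2KO, and the MAGEA3/6 row was nearly uniform, between 241 and 301 TPM.

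Many of these genes cannot be told apart by single reads of 51 bases. Members were therefore grouped where at least 30% of the 51-base words in the transcripts of 1 gene also occurred in those of another, with copies missing from the annotation added by name. Among members that reached 1 TPM in a library, this gave 10 sets beside single genes. MAGEC2, MAGEB2, MAGEB3 and PAGE1 shared 0.0% of their words with any other gene, whereas SPANXA1 shared 100% and SPANXC 84.3% with other genes. Values also jumped between libraries, in that 18 of the 61 members were listed at 0 in a library of a genotype that held over 5 TPM in another. GAGE2E, for example, had 33.7, 0, 0 and 0 TPM in NOTCH1KO, 0 TPM in all 4 NOTCH2KO libraries and 0, 0, 25.7 and 0 TPM in WT. Here and below, values are listed for Fc/DMSO, then Fc/DAPT, then Jagged1/DMSO, then Jagged1/DAPT. Such zeros may be failed estimates, since the rule for assigning reads that fit several copies is unknown here. For the same reason, set sums and family totals may count some reads more than once, as where SPANXB1 and SPANXB2 have equal values.

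**Figure D2:**
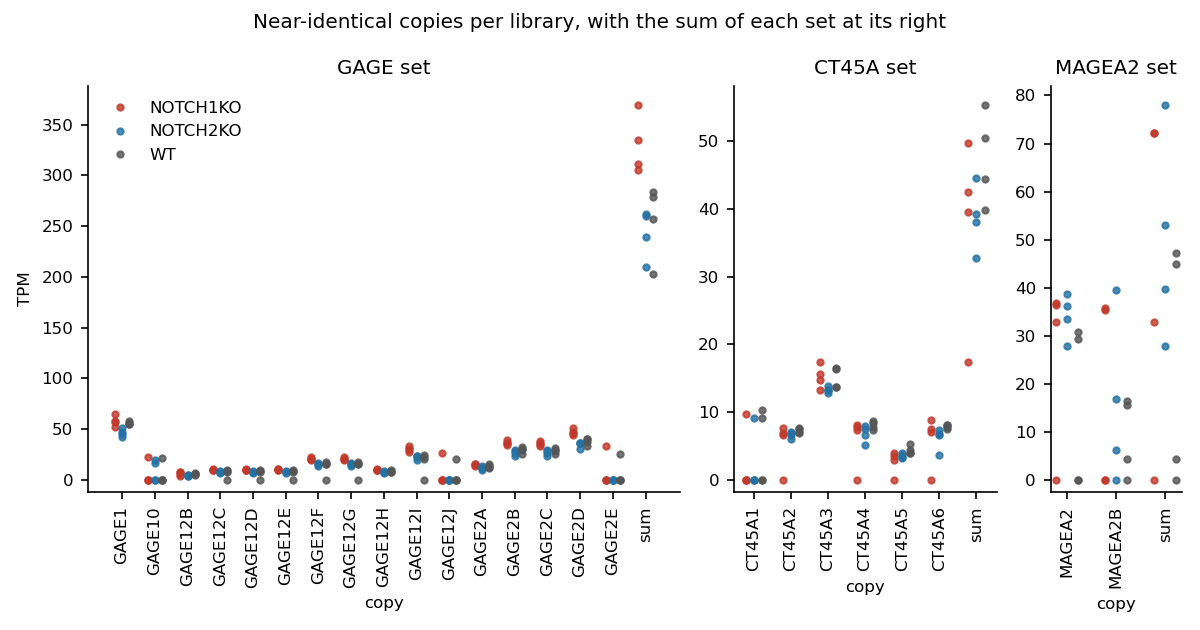
TPM of each copy in the GAGE, CT45A and MAGEA2 sets, 1 point per library colored by genotype, with the sum of the set at the right of each panel. GAGE10, GAGE12J, GAGE2E and MAGEA2B fell to 0 in some libraries of a genotype and not in others, and the GAGE sum ran from 203 to 370 TPM.

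To compare genotypes, log2(TPM + 1) was fitted with limma for all 17621 genes with a mean of at least 1 TPM, 56 of them members. A call required an adjusted p under 0.05 after Benjamini-Hochberg adjustment over all genes. With 1 library for each combination, these tests set a difference against the residual departure from additive effects of genotype and culture. They do not use the spread between independent cultures. In NOTCH1KO against WT, 6 members were called higher (10.7% of all genes) and 18 lower (12.8% of all genes). In NOTCH2KO against WT, 7 were called higher (12.0% of all genes) and 14 lower (7.35% of all genes). In NOTCH2KO against NOTCH1KO, 8 were called higher (19.8% of all genes) and 15 lower (11.9% of all genes). Several of those calls are of copies of 1 set. With near-identical members summed, giving 23 genes and sets, 2 were called higher and 8 lower in NOTCH1KO against WT, 3 higher and 7 lower in NOTCH2KO against WT, and 4 higher and 6 lower in NOTCH2KO against NOTCH1KO. Without summing, 23.5%, 19.3% and 31.7% of all genes were called in either direction in these comparisons. The share of all genes was not worked out for the summed fit, so its counts are not read further. The median log2 differences of the 56 members were 0.03, -0.14 and -0.24 in these comparisons, and those of all genes were 0.00, 0.06 and 0.07, in both cases counted from NOTCH1KO against WT onward. Both comparisons with WT use the same 4 WT libraries.

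MAGEC2 and the SPANX genes were low in NOTCH1KO and high in NOTCH2KO. MAGEC2, whose protein binds the ubiquitin ligase TRIM28, is encoded at 141290131 to 141293076 on the minus strand of chromosome X (GRCh37), in the same distal region as the SPANX copies. It had 8.98, 9.52, 9.99 and 8.76 TPM in NOTCH1KO, 73.3, 76.4, 81.3 and 80.0 TPM in NOTCH2KO, and 59.6, 61.7, 63.9 and 66.3 TPM in WT. The 3 genotypes did not overlap in any library. The mean was 6.75-fold lower in NOTCH1KO than in WT (log2 difference -2.63 ± 0.07 SE, adjusted p = 3.96e-07, limma). In NOTCH2KO it was 1.24-fold higher than in WT (0.30 ± 0.07, adjusted p = 0.021, limma). The call for NOTCH2KO was lost when libraries were centred on their median. It was also lost when any NOTCH2KO library or any WT library but that on Jagged1 with DAPT was left out (adjusted p between 0.0565 and 0.0753 without 1 library, limma). In bulk RNA, fewer cells that express a gene and less of its RNA in each cell cannot be told apart.

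SPANX proteins are named for their association with the nucleus of sperm. SPANXB1 and SPANXB2, identical in every value, each had 33.4, 30.8, 40.7 and 35.6 TPM in NOTCH1KO, 752, 765, 785 and 780 TPM in NOTCH2KO, and 92.3, 102, 90.3 and 92.7 TPM in WT. No library of 1 genotype reached the range of another, and the NOTCH2KO values exceeded those of every other member in any library. Summed, the pair averaged 70.2 ± 8.44 TPM in NOTCH1KO, 1541 ± 30.5 TPM in NOTCH2KO and 189 ± 10.7 TPM in WT (SD, n = 4 each). The sum was 2.69-fold lower in NOTCH1KO than in WT (log2 difference -1.42 ± 0.09, adjusted p = 5.76e-05, limma) and 8.16-fold higher in NOTCH2KO than in WT (3.02 ± 0.09, adjusted p = 6.24e-07, limma).

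SPANXA1 and SPANXA2 likewise shared their values, 6.30, 6.97, 8.03 and 7.24 TPM in NOTCH1KO, 114, 114, 126 and 123 TPM in NOTCH2KO, and 45.7, 49.1, 51.3 and 50.3 TPM in WT. SPANXD had 2.08, 2.79, 3.12 and 2.76 TPM in NOTCH1KO, 23.8, 25.9, 31.1 and 27.8 TPM in NOTCH2KO, and 18.6, 17.6, 18.9 and 18.8 TPM in WT. Both followed the order of MAGEC2 with no overlap between genotypes. SPANXC differed: it was listed at 0, 0, 11.2 and 0 TPM in NOTCH1KO, at 171, 175, 188 and 183 TPM in NOTCH2KO, and at 0 TPM in all 4 WT libraries. The single NOTCH1KO library above 0 was on Jagged1 with DMSO. SPANXC was called higher in NOTCH2KO than in WT (adjusted p = 0.000211, limma), with no fold given against libraries at 0. Summed with SPANXA1, SPANXA2 and SPANXD, the set averaged 19.7 ± 7.16 TPM in NOTCH1KO, 445 ± 22.9 TPM in NOTCH2KO and 117 ± 5.04 TPM in WT. The sum was lower in NOTCH1KO than in WT (-2.56 ± 0.15, adjusted p = 3.79e-05, limma) and higher in NOTCH2KO than in WT (1.92 ± 0.15, adjusted p = 0.000166, limma).

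The 250 bases before the start of SPANXA1 and SPANXC are shown because these copies of the same set differ there at only 3 positions. Of their 51-base words, SPANXA1 shares 24.3% with SPANXC, and SPANXC shares 46.3% with SPANXA1. With all other genes together SPANXC shares 84.3%. The 0 TPM listed for SPANXC in WT may be a failed estimate, and nothing is read from the bases about its level. These are RefSeq promoters of GRCh38.p14, both from the minus strand and written 5′ to 3′, at chrX:141584739-141584988 for SPANXA1 and chrX:141242518-141242767 for SPANXC. Capitals mark the bases that differ, G50A, C225T and T227C, counted from 1 at the 5′ end with the SPANXA1 base first.
SPANXA1: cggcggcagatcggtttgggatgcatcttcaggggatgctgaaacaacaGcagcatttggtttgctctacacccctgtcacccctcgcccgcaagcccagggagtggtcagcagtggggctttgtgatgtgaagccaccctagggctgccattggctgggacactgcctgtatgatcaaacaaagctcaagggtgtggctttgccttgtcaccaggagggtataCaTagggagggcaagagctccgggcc
SPANXC: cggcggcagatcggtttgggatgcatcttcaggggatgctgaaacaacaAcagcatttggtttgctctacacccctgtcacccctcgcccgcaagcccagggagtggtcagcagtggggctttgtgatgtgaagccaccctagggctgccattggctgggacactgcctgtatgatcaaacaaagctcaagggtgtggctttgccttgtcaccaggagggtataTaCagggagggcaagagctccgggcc
In a pairwise alignment, the SPANXB1 promoter matched SPANXA1 at 99.0% and SPANXC at 99.5% of 210 aligned bases, and SPANXD matched SPANXA1 at 68.5% of 146.

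**Figure D3:**
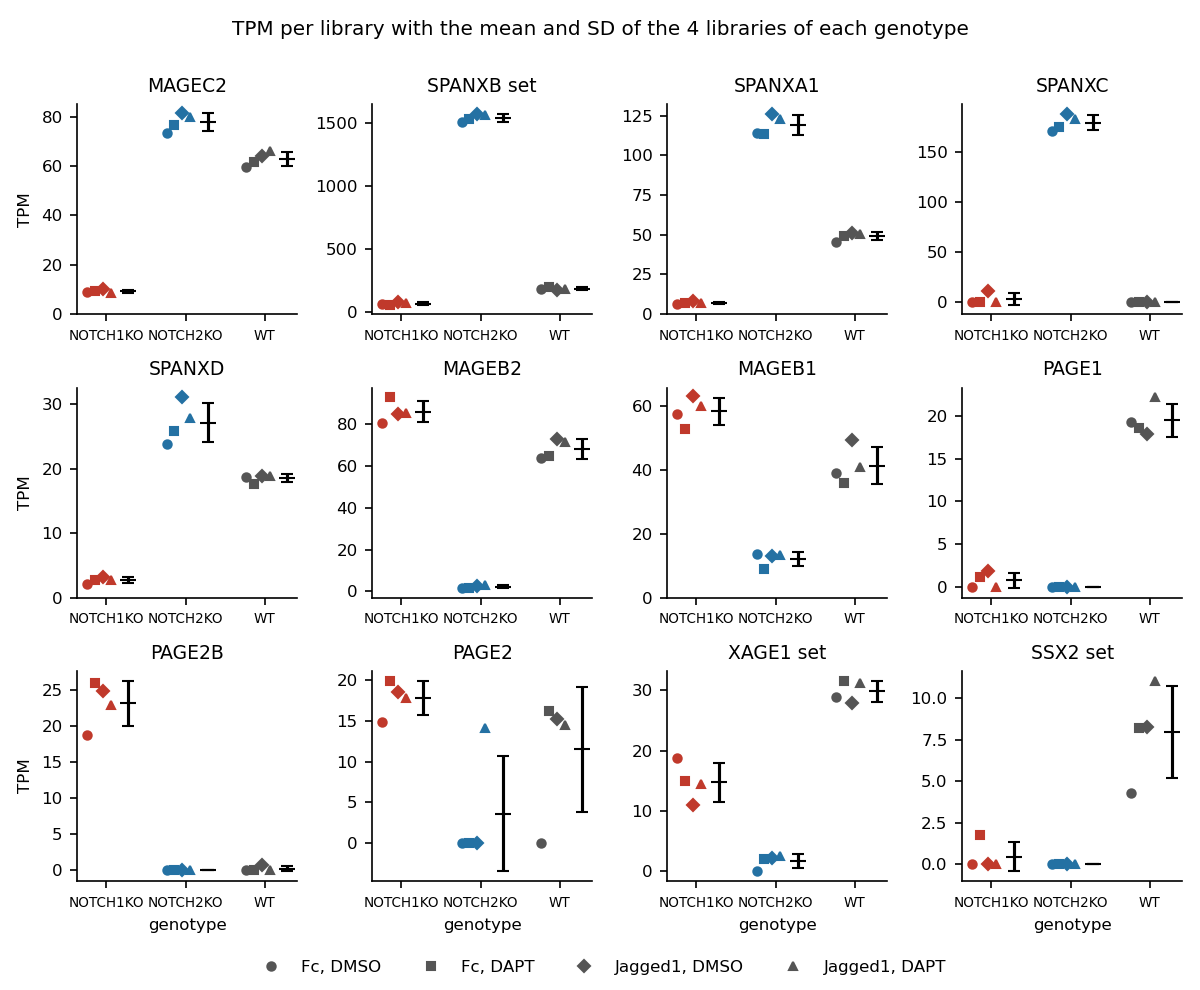
TPM in each library for the members and sets with the largest differences, by genotype, with the symbol giving the culture and the bar the mean and SD of the 4 libraries. MAGEC2 stood at 9.31 TPM on average in NOTCH1KO, against 62.9 TPM in WT, MAGEB2 at 2.21 TPM in NOTCH2KO, against 68.3 TPM in WT, and PAGE2B at 23.2 TPM in NOTCH1KO, against 0.182 TPM in WT.

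MAGEB1, MAGEB2, MAGEB3 and MAGEB4 stand in 1 cluster on the short arm of the X chromosome, apart from MAGEB genes such as MAGEB10. MAGEB4 was at most 0.0208 TPM in any library. MAGEB2 and MAGEB1 were low in NOTCH2KO, and MAGEB3 was low in NOTCH1KO. MAGEB2 (GRCh37 chromosome X, 30233677 to 30238206, plus strand) had 80.8, 93.0, 85.0 and 85.4 TPM in NOTCH1KO, 1.60, 1.74, 2.58 and 2.92 TPM in NOTCH2KO, and 63.7, 64.8, 73.0 and 71.7 TPM in WT. Every NOTCH2KO library was under 3 TPM, and every other library was over 63 TPM. The mean was 30.9-fold lower in NOTCH2KO than in WT (log2 difference -4.45 ± 0.12, adjusted p = 3.74e-07, limma). In NOTCH1KO it stood at 86.0 ± 5.09 TPM, against 68.3 ± 4.71 TPM in WT, without overlap but without a call (0.33 ± 0.12, adjusted p = 0.0704, limma).

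MAGEB1, on the far side of MAGEB3 from MAGEB2, had 57.5, 52.8, 63.0 and 59.98 TPM in NOTCH1KO, 13.6, 8.84, 13.0 and 13.2 TPM in NOTCH2KO, and 39.1, 35.8, 49.4 and 40.9 TPM in WT. It was 3.40-fold lower in NOTCH2KO than in WT (-1.69 ± 0.10, adjusted p = 3.87e-05, limma) and 1.41-fold higher in NOTCH1KO than in WT (0.50 ± 0.10, adjusted p = 0.00926, limma). MAGEB3 was low overall and had 0.102, 0.235, 0 and 0.138 TPM in NOTCH1KO, 1.35, 1.62, 1.19 and 1.73 TPM in NOTCH2KO, and 1.95, 2.12, 2.09 and 2.29 TPM in WT. Here NOTCH1KO was the low line (-1.48 ± 0.12, adjusted p = 0.000145, limma), and NOTCH2KO did not pass the test against WT (-0.34 ± 0.12, adjusted p = 0.0763, limma). The nearest tested gene to the right of MAGEB1, the glycerol kinase gene GK 0.41 Mb away by start, was called higher in both lines than in WT (0.61 in NOTCH1KO and 0.68 in NOTCH2KO).

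The promoters of MAGEC2 and MAGEB2 are shown because 1 fell in NOTCH1KO and the other in NOTCH2KO. Both are the 250 bases before the RefSeq start in GRCh38.p14, at chrX:142205291-142205540 on the minus strand for MAGEC2 and at chrX:30215313-30215562 on the plus strand for MAGEB2, 5′ to 3′, with CG dinucleotides, the sites of DNA methylation, in capitals.
MAGEC2: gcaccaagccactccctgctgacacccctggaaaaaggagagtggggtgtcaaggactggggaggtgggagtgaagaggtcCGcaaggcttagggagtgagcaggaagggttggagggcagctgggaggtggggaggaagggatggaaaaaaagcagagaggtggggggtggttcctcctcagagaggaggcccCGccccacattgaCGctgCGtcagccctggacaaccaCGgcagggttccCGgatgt
MAGEB2: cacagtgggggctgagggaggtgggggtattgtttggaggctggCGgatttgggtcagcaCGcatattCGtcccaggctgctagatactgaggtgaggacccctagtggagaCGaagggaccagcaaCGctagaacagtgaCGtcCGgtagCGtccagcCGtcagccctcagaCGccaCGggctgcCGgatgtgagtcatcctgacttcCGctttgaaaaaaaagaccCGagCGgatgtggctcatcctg
MAGEC2 had 6 CG dinucleotides in this window and MAGEB2 had 15. DNA methylation was not measured in these libraries.

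Of the GAGE-like PAGE family, PAGE1 was found mainly in WT, and PAGE2B was listed mainly in NOTCH1KO. PAGE1 (chromosome X, 49452053 to 49460596, minus strand) had 0, 1.14, 1.84 and 0 TPM in NOTCH1KO, 0 TPM in all 4 NOTCH2KO libraries, and 19.3, 18.6, 17.9 and 22.2 TPM in WT. Both knockout lines lay below every WT library. The log2 difference was -3.70 ± 0.30 in NOTCH1KO (adjusted p = 0.000173, limma) and -4.35 ± 0.30 in NOTCH2KO (adjusted p = 9.85e-05, limma), with no fold given against a line at 0. NOTCH2KO and NOTCH1KO were not called apart (-0.65 ± 0.30, adjusted p = 0.133, limma).

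PAGE2B (chromosome X, 55101496 to 55105342, plus strand) was listed almost only in NOTCH1KO. It shares 51.7% of its words with other genes, mainly PAGE2, so that its zeros may be failed estimates. It had 18.8, 26.0, 25.0 and 23.0 TPM in NOTCH1KO, 0 TPM in all 4 NOTCH2KO libraries, and 0, 0, 0.727 and 0 TPM in WT. No library of the other genotypes reached 1 TPM (4.39 ± 0.17 against WT, adjusted p = 5.43e-06, limma). PAGE2, which shares 38.3% of its words with other genes, had 14.9, 19.97, 18.5 and 17.8 TPM in NOTCH1KO, 0, 0, 0 and 14.2 TPM in NOTCH2KO, and 0, 16.2, 15.2 and 14.5 TPM in WT. The NOTCH1KO and WT ranges overlapped, with WT at 0 only on Fc with DMSO, and NOTCH2KO was above 0 only on Jagged1 with DAPT. With the pair summed, NOTCH1KO against WT did not pass the test (2.35 ± 0.87, adjusted p = 0.0844, limma) although every NOTCH1KO library was higher, and NOTCH2KO was lower than NOTCH1KO (-4.40 ± 0.87, adjusted p = 0.00611, limma). PAGE5, in the same region, shares 11.6% of its words with other genes and was among the most abundant members. It gave no call, at 345 ± 62.8 TPM in NOTCH1KO, 321 ± 10.9 TPM in NOTCH2KO and 373 ± 55.6 TPM in WT. FAM104B, 0.068 Mb to the right of PAGE2B by start, was called higher in NOTCH1KO than in WT (0.87), and APEX2, 0.075 Mb to the left, was not called (-0.09).

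The promoters of PAGE1, PAGE2 and PAGE2B are shown because PAGE2 and PAGE2B are alike in sequence but were listed differently in WT. Zeros of either may be failed estimates, and nothing is read from the bases about their levels. They are the 250 bases before the RefSeq start in GRCh38.p14, at chrX:49695985-49696234 on the minus strand for PAGE1, and on the plus strand at chrX:55088768-55089017 for PAGE2 and chrX:55074780-55075029 for PAGE2B, with CG dinucleotides in capitals.
PAGE1: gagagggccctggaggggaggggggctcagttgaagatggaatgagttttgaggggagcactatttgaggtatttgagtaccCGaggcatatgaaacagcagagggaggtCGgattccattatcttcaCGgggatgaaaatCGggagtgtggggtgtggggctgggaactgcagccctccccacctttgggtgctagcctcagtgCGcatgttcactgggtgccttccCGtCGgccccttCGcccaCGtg
PAGE2: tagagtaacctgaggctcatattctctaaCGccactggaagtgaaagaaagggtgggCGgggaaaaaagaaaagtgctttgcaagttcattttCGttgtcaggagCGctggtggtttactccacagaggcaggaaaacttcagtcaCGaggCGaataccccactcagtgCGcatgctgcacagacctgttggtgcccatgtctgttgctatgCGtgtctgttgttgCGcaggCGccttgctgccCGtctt
PAGE2B: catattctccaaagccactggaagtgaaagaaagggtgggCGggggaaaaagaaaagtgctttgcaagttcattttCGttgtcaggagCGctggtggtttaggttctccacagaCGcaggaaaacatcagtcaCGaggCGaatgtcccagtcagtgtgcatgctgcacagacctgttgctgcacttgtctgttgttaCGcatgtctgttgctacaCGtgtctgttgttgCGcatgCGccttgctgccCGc
PAGE2 and PAGE2B matched at 94.3% of 230 aligned bases, and both had 11 CG dinucleotides. PAGE1 had 9. Over the 43 described members with a RefSeq promoter, each by its start of lowest coordinate, the number ran from 1 to 18 with a median of 8. The median was 11 over all 35114 promoters of this length, which include every start of a gene. The choice of start matters, as MAGEB1 had 1 or 13 by its start, and near-identical copies such as GAGE count singly. The ETS core CCGGAA, on either strand, occurred in 2 of the 43 (4.65%), MAGEA3 and MAGEA6, and in 14.5% of all promoters. GTGGGAA, the core bound by CSL, the DNA-binding partner of Notch, occurred on either strand in 3 of the 43 (6.98%), CT45A1, MAGEC1 and MAGEC3, and in 5.43% of all promoters. CCGGAA and GTGGGAA both end in GGAA with a different base before it, so that a match of 1 is never a match of the other. Neither occurred in the 7 promoters printed here.

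By their means, the SSX2 pair, XAGE1, MAGEA1 and the CSAG2/3 pair were lowest in NOTCH2KO and highest in WT. NOTCH2KO against NOTCH1KO was not called for the SSX2 pair (-0.37 ± 0.31, adjusted p = 0.407, limma) or the CSAG2/3 pair (-0.25 ± 0.11, adjusted p = 0.102, limma). SSX genes are known from their fusion to SS18 in synovial sarcoma. Summed, SSX2, which shares 100% of its words with other genes, and its copy SSX2B gave 0, 1.76, 0 and 0 TPM in NOTCH1KO, 0 TPM in all 4 NOTCH2KO libraries, and 4.32, 8.24, 8.26 and 11.1 TPM in WT. The lowest WT library was still above both knockout lines. The sum was lower in NOTCH1KO (-2.74 ± 0.31, adjusted p = 0.000802, limma) and in NOTCH2KO (-3.11 ± 0.31, adjusted p = 0.000578, limma) than in WT.

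The 5 XAGE1 identifiers, copies of a GAGE-like gene, summed to 18.8, 14.9, 10.9 and 14.5 TPM in NOTCH1KO, 0, 1.999, 2.16 and 2.58 TPM in NOTCH2KO, and 28.8, 31.5, 27.9 and 31.1 TPM in WT. The genotypes did not overlap. The sum was 17.7-fold lower in NOTCH2KO than in WT (-3.67 ± 0.35, adjusted p = 0.000456, limma). In NOTCH1KO the sum was 2.02-fold lower by its means but did not pass the test (-0.99 ± 0.35, adjusted p = 0.0732, limma). Each of the 5 identifiers fitted on its own was called lower in NOTCH1KO, with log2 differences between -0.94 and -0.70, and all 5 of those calls were lost with a pseudocount of 0.1. XAGE1D also lost its call without any of 6 single libraries, NOTCH1KO on any culture but Fc with DMSO and WT on any but Jagged1 with DAPT (adjusted p between 0.0519 and 0.0627, limma).

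MAGEA1, known for peptides that cytotoxic T cells recognize in melanoma, had 1.15, 1.02, 1.32 and 1.60 TPM in NOTCH1KO, 0.130, 0, 0 and 0 TPM in NOTCH2KO, and 2.85, 1.83, 2.31 and 2.58 TPM in WT. The groups stood apart at these low levels. It was called lower in NOTCH1KO (-0.58 ± 0.13, adjusted p = 0.0152, limma) and in NOTCH2KO (-1.71 ± 0.13, adjusted p = 0.000152, limma) than in WT, and the call for NOTCH1KO was lost with a pseudocount of 0.1, without the NOTCH1KO or the WT library on Fc with DMSO, and with NOTCH1KO and WT fitted alone.

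CSAG2 and CSAG3, a near-identical pair between the MAGEA genes, summed to 26.0, 26.5, 24.4 and 26.6 TPM in NOTCH1KO, 21.8, 21.0, 22.7 and 20.8 TPM in NOTCH2KO, and 34.3, 42.0, 28.9 and 36.9 TPM in WT. All 8 knockout libraries lay below the lowest WT library. The sum was 1.37-fold lower in NOTCH1KO (-0.43 ± 0.11, adjusted p = 0.0203, limma) and 1.65-fold lower in NOTCH2KO (-0.68 ± 0.11, adjusted p = 0.00375, limma) than in WT. Fitted singly, both copies lost the NOTCH1KO call with NOTCH1KO and WT fitted alone (adjusted p = 0.0737 for CSAG2 and 0.0733 for CSAG3, limma) and without single NOTCH1KO or WT libraries, 6 of them for CSAG2 and 7 for CSAG3 (adjusted p up to 0.0819, limma). The exceptions were WT on Jagged1 with DMSO for both and NOTCH1KO on Jagged1 with DAPT for CSAG2.

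**Figure D4:**
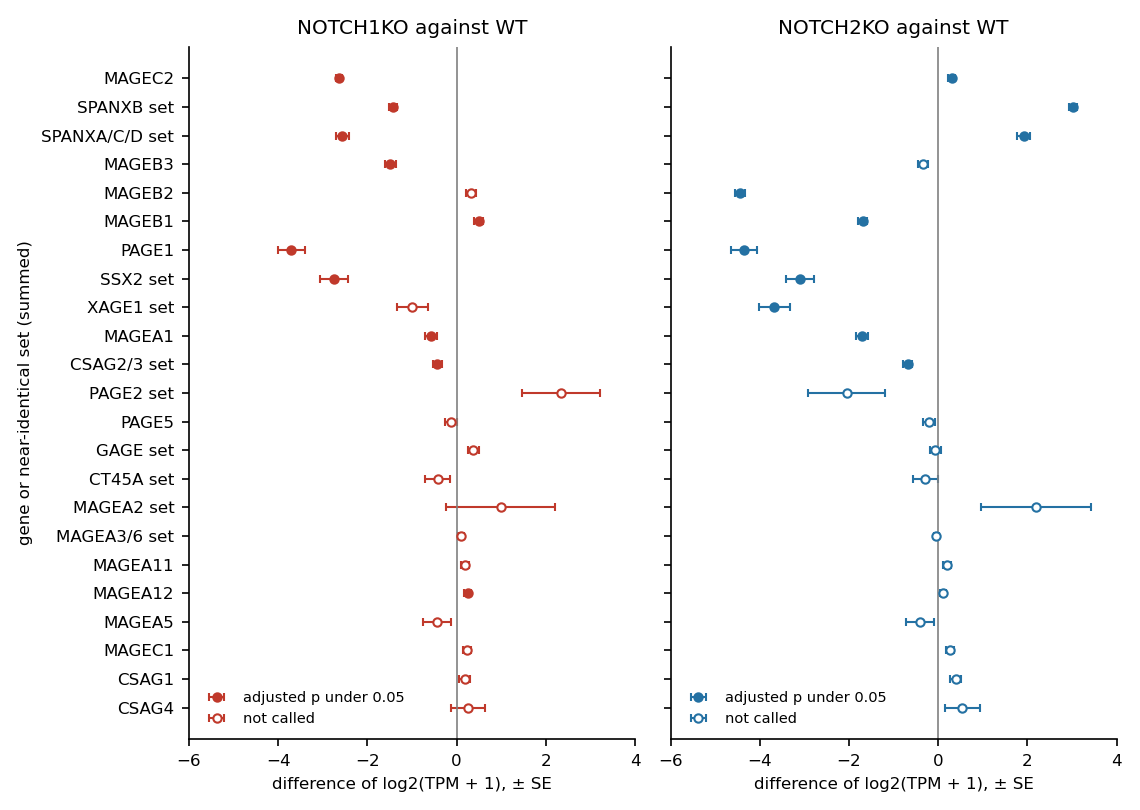
Differences of log2(TPM + 1) between each knockout line and WT for the 23 genes and sets, with the SE of the fit. Filled points passed the test. MAGEC2 and the SPANX sets lay left of 0 in NOTCH1KO and right of it in NOTCH2KO, MAGEB1 and MAGEB2 the other way round, and PAGE1 and the SSX2 set left of 0 in both.

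Several abundant members gave no call against WT. The MAGEA3/6 pair, whose proteins bind TRIM28, averaged 281 ± 19.2 TPM in NOTCH1KO, 255 ± 12.8 TPM in NOTCH2KO and 261 ± 9.18 TPM in WT, with log2 differences from WT of 0.10 and -0.04. MAGEA11, a coregulator of the androgen receptor, stood at 70.7 ± 3.65 TPM in NOTCH1KO, 71.3 ± 6.10 TPM in NOTCH2KO and 61.7 ± 4.44 TPM in WT, and MAGEC1, a neighbor of MAGEC2, at 95.4 ± 5.59, 96.2 ± 2.61 and 80.5 ± 8.20 TPM in the same 3 genotypes. Neither was called, although MAGEC1 was above every WT library in both knockout lines. The promoters of MAGEC1 and MAGEC2 matched at 86.2% of 196 aligned bases.

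MAGEA12 had 83.1, 79.7, 85.0 and 78.0 TPM in NOTCH1KO, 68.7, 75.0, 75.2 and 75.8 TPM in NOTCH2KO, and 71.9, 63.8, 70.8 and 67.3 TPM in WT. NOTCH1KO was above WT in every library and was called higher (0.25 ± 0.07, adjusted p = 0.0384, limma), a call lost without any 1 library other than NOTCH2KO on Fc with DMSO (adjusted p between 0.0523 and 0.111, limma). CSAG1 averaged 40.9 ± 4.43, 47.6 ± 6.83 and 36.3 ± 6.75 TPM in NOTCH1KO, NOTCH2KO and WT and was not called. The CT45A set, nuclear proteins of germ cells, stood at 37.3 ± 13.9, 38.7 ± 4.86 and 47.5 ± 6.78 TPM and was not called either. Its lowest library, 17.5 TPM, was NOTCH1KO on Fc with DAPT, where 5 of its 6 copies were listed at 0. The sum of the MAGEA2 pair ranged from 0 to 78.1 TPM across libraries and gave no call. MAGEA5 and CSAG4 were low, at most 12.9 TPM, and were not called.

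The GAGE genes, a cluster of small repeats, summed to 370, 305, 335 and 311 TPM in NOTCH1KO, 262, 240, 210 and 260 TPM in NOTCH2KO, and 257, 279, 284 and 203 TPM in WT. NOTCH1KO was above every library of the other genotypes. In the lowest WT library, on Jagged1 with DAPT, 6 copies that were above 7 TPM in the other WT libraries were listed at 0. The sum was called lower in NOTCH2KO than in NOTCH1KO (-0.44 ± 0.12, adjusted p = 0.0229, limma), whereas NOTCH1KO against WT missed the threshold (0.38 ± 0.12, adjusted p = 0.053, limma).

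By single identifiers, GAGE2D had 44.3, 47.0, 51.4 and 46.0 TPM in NOTCH1KO, 36.05, 36.7, 30.3 and 36.7 TPM in NOTCH2KO, and 37.3, 40.4, 33.3 and 40.6 TPM in WT. GAGE2B and GAGE2C likewise lay above every NOTCH2KO and WT library in NOTCH1KO, and these 3 were called higher in NOTCH1KO than in WT (adjusted p between 0.0447 and 0.0483, limma), calls that were lost without any 1 library, except that GAGE2D was still called without NOTCH2KO on Jagged1 with DMSO. GAGE1 had 52.3, 57.5, 65.2 and 56.7 TPM in NOTCH1KO, 42.2, 44.8, 47.1 and 50.6 TPM in NOTCH2KO, and 55.6, 54.7, 55.1 and 57.8 TPM in WT, and was called lower in NOTCH2KO than in WT (-0.27 ± 0.08, adjusted p = 0.0451, limma). The call of GAGE1 was lost without any NOTCH2KO or WT library and without NOTCH1KO on Fc with DMSO or on Jagged1 with DAPT (adjusted p between 0.0528 and 0.15, limma). GAGE12H was called lower in NOTCH2KO than in NOTCH1KO (-0.35 ± 0.11, adjusted p = 0.0442, limma), at 7.59 ± 0.990 TPM in NOTCH2KO and 9.92 ± 0.613 TPM in NOTCH1KO, a call lost without any 1 library other than NOTCH1KO or WT on Fc with DAPT (adjusted p between 0.0503 and 0.126, limma).

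Set against each other directly, NOTCH2KO and NOTCH1KO differed on the log2(TPM + 1) scale by over 4 in the SPANX sets, MAGEB2 and the PAGE2 set. The SPANXB pair was 21.9-fold higher in NOTCH2KO (4.44 ± 0.09, adjusted p = 4.18e-08, limma) and MAGEC2 8.35-fold higher (2.93 ± 0.07, adjusted p = 7.89e-08, limma). MAGEB2 was 38.9-fold lower (-4.78 ± 0.12, adjusted p = 7.61e-08, limma), MAGEB1 4.80-fold lower (-2.19 ± 0.10, adjusted p = 5.38e-06, limma) and the XAGE1 set 8.77-fold lower in NOTCH2KO (-2.69 ± 0.35, adjusted p = 0.000915, limma). MAGEB3 was 12.4-fold higher in NOTCH2KO (1.14 ± 0.12, adjusted p = 0.000285, limma) and MAGEA1 was lower (-1.14 ± 0.13, adjusted p = 0.000518, limma), both at levels under 2 TPM. No fold is given for MAGEA1, which in NOTCH2KO was at 0 except for 0.130 TPM on Fc with DMSO.

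The cultures asked whether Notch ligand or its blockade moved these genes. No member was called for Jagged1 against Fc in DMSO (0.0114% of all genes), DAPT against DMSO on Jagged1 (0.0284%), DAPT against DMSO on Fc (0.0341%) or Jagged1 against Fc in DAPT (0.00568%). At an unadjusted p under 0.05, limma gave 5, 2, 1 and 2 members, counted in the same order, or 8.93%, 3.57%, 1.79% and 3.57% of the members. Of all genes, 10.8%, 11.0%, 6.14% and 4.74% passed that threshold. The members' shares were lower in all 4, but by few members. The members include near-identical copies, and no conclusion is drawn from this gap. MAGEC2 was lowest in NOTCH1KO and highest in NOTCH2KO in each of the 4 cultures.

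Differences between genotypes in the response to the plate or the drug were tested with limma's interaction terms in separate fits. The Jagged1 response was Jagged1 against Fc over both DMSO and DAPT. The DAPT response was DAPT against DMSO over both plates. For the Jagged1 response, no member was called for NOTCH1KO minus WT (0.0341% of all genes) or NOTCH2KO minus WT (0.0397%), and for the DAPT response none for NOTCH1KO minus WT (0.0114%) or NOTCH2KO minus WT (0.00%). At an unadjusted p under 0.05 there were 3 and 1 members for Jagged1 (5.36% and 1.79%, against 11.7% and 3.87% of all genes). For DAPT there were 1 and 0 (1.79% and 0.0%, against 3.36% of all genes in both). The members include near-identical copies, and these small counts are not read further.

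The differences between lines were set beside the rest of the X chromosome. Of 682 other tested genes there, 12.6% were called higher and 8.21% lower in NOTCH1KO, and 12.5% higher and 4.11% lower in NOTCH2KO, both against WT. Their median log2 differences were 0.08 and 0.10. The nearest tested gene to the left of SPANXB1 by start was the non-coding LINC00632 at 0.305 Mb. It was lower in NOTCH1KO (-0.84) and higher in NOTCH2KO (0.81) than in WT, as SPANXB1 was. Its means were only 0.205 TPM in NOTCH1KO, 2.76 TPM in NOTCH2KO and 1.09 TPM in WT. LDOC1, nearer to SPANXB1 at 0.173 Mb and 0.066 Mb from SPANXC, was not called in either line against WT (-0.27 and 0.22). Beside PAGE1, PPP1R3F and USP27X were not called in either line against WT. MAGED4, left of XAGE1A, was called lower in NOTCH1KO only (-0.71). Other neighbors went against their member. ZNF185, left of MAGEA1, was called higher in NOTCH1KO (1.04) and NOTCH2KO (1.85), where MAGEA1 was lower. GABRQ, left of CSAG3, was also called higher in both (0.73 and 0.64), where CSAG3 was lower. To the right of these members, ZNF275 was not called in either line, and CETN2 was called higher in NOTCH2KO only (0.32).

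The lists that follow are read against the 23.5% of all genes called in either direction in NOTCH1KO and the 19.3% in NOTCH2KO, both against WT. Of 37 other X-linked cancer-testis genes in the tables, 4 passed the filter, of which 3 were called higher and 1 lower in NOTCH1KO and none in NOTCH2KO against WT. FMR1NB averaged 120 TPM in NOTCH1KO and 56.6 TPM in WT (1.07), and the near-identical RNA export genes NXF2 and NXF2B averaged 11.5 and 9.80 TPM in NOTCH1KO, against 2.47 and 2.70 TPM in WT (log2 differences 1.996 and 1.77). CXorf67 was lower in NOTCH1KO (53.9 TPM, against 74.3 TPM in WT). Of 40 further cancer-testis and germline genes, mostly autosomal, 16 were tested, of which 1 was higher and 4 lower in NOTCH1KO, and 2 higher and 1 lower in NOTCH2KO, against WT, numbers near the background, with median log2 differences of 0.04 and 0.14. PIWIL1, an Argonaute protein of the germline, averaged 1.85 TPM in NOTCH1KO, 9.11 TPM in NOTCH2KO and 3.11 TPM in WT, the order seen for MAGEC2. LIN28B, a blocker of let-7 processing, averaged 11.1 TPM in NOTCH1KO, 2.59 TPM in NOTCH2KO and 7.10 TPM in WT, the order seen for MAGEB2. IL13RA2, an X-linked cytokine receptor gene, averaged 65.5 TPM in NOTCH1KO, 221 TPM in NOTCH2KO and 229 TPM in WT.

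The type II MAGE genes, which are broadly expressed outside the germline, were taken for comparison. Of 8 tested, 2 were called higher and 5 lower in NOTCH1KO, and 1 higher and none lower in NOTCH2KO, against WT, with median log2 differences of -0.30 and 0.22. MAGED1 averaged 98.9 TPM in NOTCH1KO, 173 TPM in NOTCH2KO and 139 TPM in WT. Of 24 tested regulators of DNA methylation and silencing and partners of MAGE proteins, 5 were higher and 2 lower in NOTCH1KO, which is near the background, and none higher and 1 lower in NOTCH2KO, against WT. Their median log2 differences were 0.02 and 0.00. The de novo methyltransferase gene DNMT3A averaged 12.6 TPM in NOTCH1KO and 26.9 TPM in WT (-1.03, adjusted p = 0.00167, limma) and stood at 28.0 TPM in NOTCH2KO. The histone methyltransferase gene SETDB1 averaged 62.0 TPM in NOTCH1KO and 39.8 TPM in WT (0.60), and the demethylation enzyme gene TET3 6.89 TPM in NOTCH1KO and 4.22 TPM in WT (0.59). The part of these genes in the levels of the cancer-testis families was not tested.

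Low members were described by range. MAGEB10 reached 1.46 TPM, MAGEC3 1.15 TPM and PAGE4 1.95 TPM, each in a NOTCH1KO library, SSX1 reached 1.30 TPM in NOTCH1KO on Jagged1 with DMSO, and XAGE5 reached 1.25 TPM in WT on Jagged1 with DAPT. Their means over the 12 libraries were under 1 TPM, and they entered no test.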

How the data were processed

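RNA was read with a stranded poly-A kit in single reads of 51 bases, and bcl2fastq 2.17 and CASAVA are named in the submitters' processing notes. The authors deposited per gene, on GRCh37, values of TPM, of FPKM and of coverage. The sources used here name no aligner or quantifier. TPM were summed per gene identifier. Members and lists were chosen with earlier results of these data known. Members with at least 1 TPM in any library are described, with values per library for those called between genotypes and at most the 4 largest called changes named from each other list. On genes with a mean of at least 1 TPM, log2(TPM + 1) was fitted with limma 3.58.1 (R 4.3.3) with terms for genotype and culture (6 residual degrees of freedom). For responses, an interaction of genotype with plate or, in a separate fit, with drug was added (4 residual degrees of freedom). The fit was tested on simulated data. Near-identical sets came from 51-base words of GENCODE v29 transcripts, with 89 of 101 identifiers matched. Promoters were aligned with Biopython 1.88. Alternatives were another pseudocount, other filters, FPKM, deposited coverage, median centring, summed sets, fewer libraries or terms, CTAGE genes counted, and members with unstable zeros left out, the last 2 added after seeing the data.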

Additional observations from a re-analysis of the deposited data

Results flagged for a closer look

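Every described identifier and every summed set was screened, so that a copy can count both singly and within its set. Among 186 groups of 4 libraries of 1 genotype, which are 4 different cultures, 27 had a single library far from the other 3, by the gap to the nearest one as a share of the range, and chance gives about 1 in 20. PAGE2, and with it the PAGE2 set, was at 14.183 TPM in NOTCH2KO on Jagged1 with DAPT while the other 3 NOTCH2KO libraries were at 0, and both were at 0.0 TPM in WT on Fc with DMSO while the others were at 14.5 TPM or more. SPANXC was at 11.1798 TPM in NOTCH1KO on Jagged1 with DMSO and at 0 in the other 3, and the SPANXA/C/D set was at 30.3615 TPM there, against 17.2 TPM or less in the others. SSX2B, and with it the SSX2 set, was at 1.7601 TPM in NOTCH1KO on Fc with DAPT and at 0 in the others.

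Copies of the GAGE, CT45A and MAGEA2 sets gave most of the others. In NOTCH1KO on Fc with DMSO, CT45A1 was at 9.7182 TPM, GAGE10 at 22.0445 TPM, GAGE12J at 26.2815 TPM and GAGE2E at 33.749 TPM, each at 0 in the other 3 NOTCH1KO libraries. CT45A1 was at 9.1218 TPM in NOTCH2KO on Fc with DAPT only. In WT, GAGE10 was at 21.0428 TPM on Jagged1 with DAPT only, and GAGE12J at 20.123 TPM and GAGE2E at 25.6644 TPM on Jagged1 with DMSO only. CT45A2 and CT45A4 were at 0.0 TPM in NOTCH1KO on Fc with DAPT alone, MAGEA2 in NOTCH1KO on Jagged1 with DMSO alone, and GAGE12F, GAGE12G and GAGE12I in WT on Jagged1 with DAPT alone. GAGE2D was lowest in NOTCH2KO on Jagged1 with DMSO, at 30.2927 TPM.

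MAGEA12 was at 68.6507 TPM in NOTCH2KO on Fc with DMSO, below the others. MAGEB1 was at 8.8386 TPM in NOTCH2KO on Fc with DAPT, below the others. SSX1 reached 1.3007 TPM in NOTCH1KO on Jagged1 with DMSO, and XAGE5 reached 1.2531 TPM in WT on Jagged1 with DAPT.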

How the results depend on the processing

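No share of all genes called was worked out for the settings below, so their counts are not set against a background. With a mean of at least 5 TPM required, the members called numbered 15 (6 higher, 9 lower) in NOTCH1KO against WT and 13 (7 higher, 6 lower) in NOTCH2KO against WT. With near-identical members summed, 10 genes and sets were called in each of the 3 genotype comparisons. In those sums SPANXC in NOTCH1KO against WT took the value of its set, -2.56, and GAGE10 in NOTCH2KO against NOTCH1KO that of the GAGE set, -0.44, both of the opposite sign to the single identifier. Leaving out single libraries gave 16 to 21 calls in NOTCH1KO against WT, 18 to 21 in NOTCH2KO against WT, 20 to 25 in NOTCH2KO against NOTCH1KO, and 0 for every culture comparison. Calls kept in every setting that tested the member were 10 of 24 in NOTCH1KO against WT and 18 of 21 in NOTCH2KO against WT. In NOTCH2KO against NOTCH1KO they were 18 of 23. A member left out by a setting's filter, such as a mean of at least 5 TPM, was not counted as lost there. PAGE2B in NOTCH1KO was lost only by summing with PAGE2. Median centring moved NOTCH2KO against NOTCH1KO by -0.15 on the log2 scale, and MAGEC2 in NOTCH2KO against WT was no longer called (0.20, adjusted p = 0.097, limma). The culture term pairs the genotypes by culture, and without it (genotype term alone) 24, 21 and 23 members were called in NOTCH1KO against WT, NOTCH2KO against WT and NOTCH2KO against NOTCH1KO, the numbers with it. The labels give no replicate numbers to pair by. With 1 line per genotype and 1 library per combination, differences between lines other than the targeted gene cannot be told apart from it, and levels near 0.1 TPM rest on about 1 read for a transcript of 1 kb.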
